A study of Mus musculus with 6 samples.

Results

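The nuclear pore and nuclear transport genes described here are 45 genes taken by symbol from a table of 24972 rows. They are 25 transport receptors and Ran cycle genes and 20 nucleoporins. All 45 were found in the table, and all 45 passed the filter on low values that left 12091 genes for testing. The members were picked because these families had been seen to be lower in Lcn10-KO than in WT. Their differences between the genotypes are therefore a description of the values that chose them, and no test of them is offered. RNA was sequenced from untreated bone marrow-derived macrophages of wild-type (WT) mice and of mice with a knockout of *Lcn10* (Lcn10-KO), which codes for a lipocalin, with 3 libraries per genotype. Monocytes isolated from the bone marrow of the mice were grown into macrophages in medium with L929 supernatant, which provides the macrophage growth factor M-CSF. The labels give no strain, age or sex and do not say how *Lcn10* was inactivated or whether each library stands for its own mouse. The p-values below therefore measure only the spread between these libraries, which may be technical.

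The nuclear pore complex is the protein channel through which RNA and proteins pass between nucleus and cytoplasm. A scaffold of Y complexes and inner rings is held in the nuclear membrane by membrane nucleoporins, while nucleoporins rich in phenylalanine-glycine repeats fill the channel, and filaments and a basket extend from its cytoplasmic and nuclear faces. Importins bind cargo in the cytoplasm and release it in the nucleus when they meet the GTP-bound form of Ran, and exportins bind cargo together with GTP-bound Ran and release it once RanGAP has stimulated hydrolysis. In macrophages this route carries transcription factors such as NF-kB and STAT proteins into the nucleus.

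Values are normalized read counts, and the libraries held about 18010900 to 24844200 reads each. *Lcn10* was listed at 0 in all 6 libraries and so could not check the genotype labels. Summed over 8 macrophage markers, values lay between 275689 and 285481 in WT and between 290127 and 303888 in Lcn10-KO, with *Mertk* and *Adgre1* past the threshold toward higher and *Csf1r* toward lower values. Markers of T and NK cells (*Nkg7* at 0) summed to at most 10.4 in any library. Markers of B cells and mast cells (*Fcer1a* at 0) summed to at most 64.5. Granulocyte markers (*Ly6g* at 0) summed to 338 to 469.7 in WT and 407 to 446 in Lcn10-KO, and monocyte markers to 448 to 749.8 and 604 to 695. Sums were 1379 to 2062 and 1835 to 2354 for dendritic cell markers, 3039 to 4748 and 3998 to 4485 for stromal markers, and 1381 to 1572 and 1476 to 2025 for endothelial markers, of which *Vwf* was past the threshold. The 6 tested endothelial markers had a median log2 fold change of 0.74, and *Emcn* stood at 27.2 to 31.8 in WT and at 24.5, 121 and 62.4 in Lcn10-KO replicates 1 to 3. *Pecam1* and *Cdh5* were likewise highest in Lcn10-KO replicate 2, at 161 and 165. *Kdr* instead had its highest value in WT replicate 1 (280, then 209 and 205 for replicates 2 and 3), with Lcn10-KO replicates 1 to 3 at 192, 238 and 183. What part the endothelial markers have in the differences below was not tested.

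Markers of dividing cells differed by phase. Of all tested genes, 5.14% were past the threshold and lower in Lcn10-KO, and 4.70% were past it and higher. Of 10 S phase genes, 8 were past the threshold and lower in Lcn10-KO, with a median log2 fold change of −0.31. Their sums were 54485, 49718 and 50686 in WT replicates 1 to 3 and 45868, 44641 and 42322 in Lcn10-KO replicates 1 to 3, so the genotypes did not overlap. The 8 lower calls remained 8 in number without WT replicate 1 and became 1 or 0 when Lcn10-KO replicate 2 or 3, respectively, was omitted. There were 0 such calls in limma without the mean-variance trend. These fits were chosen for this list after seeing the data, with medians of −0.34 to −0.24 over the fits that omitted 1 library. Of 10 genes of G2 and M phase, 0 were lower and 1 was higher, with sums of 36705 to 40023 in WT and 36365 to 40078 in Lcn10-KO. Between the genotypes the S phase genes thus shared the direction of the nuclear transport genes below, and their part in those differences was not tested. Within WT both sums were highest in replicate 1. Within Lcn10-KO, replicate 3 had the lowest S phase sum and the highest sum of the nuclear transport genes. In bulk RNA, fewer cells of a type and less RNA per cell cannot be told apart.

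Of the 45 genes, 43 had a log2 fold change below 0 and 2 above 0 (*Xpo6* and *Nup50*). The median was −0.14, against −0.0011 over all tested genes, of which 50.3% were below 0. Summed over the 45 genes, values were 130958, 121704 and 121469 in WT replicates 1 to 3 and 113736, 111092 and 116103 in Lcn10-KO replicates 1 to 3. The Lcn10-KO sum was 91.1% of the WT sum, and the genes took 0.592% to 0.639% of all normalized counts in WT and 0.538% to 0.564% in Lcn10-KO. WT replicate 1 lay above the other WT libraries, which resembled each other, and the genotypes did not overlap.

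Taken singly, the differences were small and ran from −0.37 (*Nup43* and *Nup210*) to 0.03 (*Xpo6*) on the log2 scale. All 3 Lcn10-KO values lay below all 3 WT values in 28 of the 45 genes, all above in 0, and the groups overlapped in 17. Among all tested genes 16.9% had all Lcn10-KO values below all WT values and 15.5% all above. In the fit over all genes (limma, Benjamini-Hochberg adjusted p under 0.05), 14 of the 45 were lower and 31 not past the threshold, and of all tested genes 5.14% were called lower, 4.70% higher and 9.84% in either direction. These counts describe genes chosen by this contrast, and nothing is read from them. The count was 9 without WT replicate 1 and 2 without Lcn10-KO replicate 1, where 4.72% and 2.30% of all tested genes were called lower. It was 0 without Lcn10-KO replicate 2, 0 without replicate 3 and 0 in limma without the mean-variance trend. There, 0.850%, 0.699% and 0.0662% of all tested genes were called lower. In the same fits 20, 25 and 19 members were lower at an unadjusted p under 0.05 (26 with all libraries and the trend). At the same p, 9.86%, 11.4% and 11.4% of all tested genes were lower in these fits (13.85% with all libraries and the trend).

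**Figure D1:**
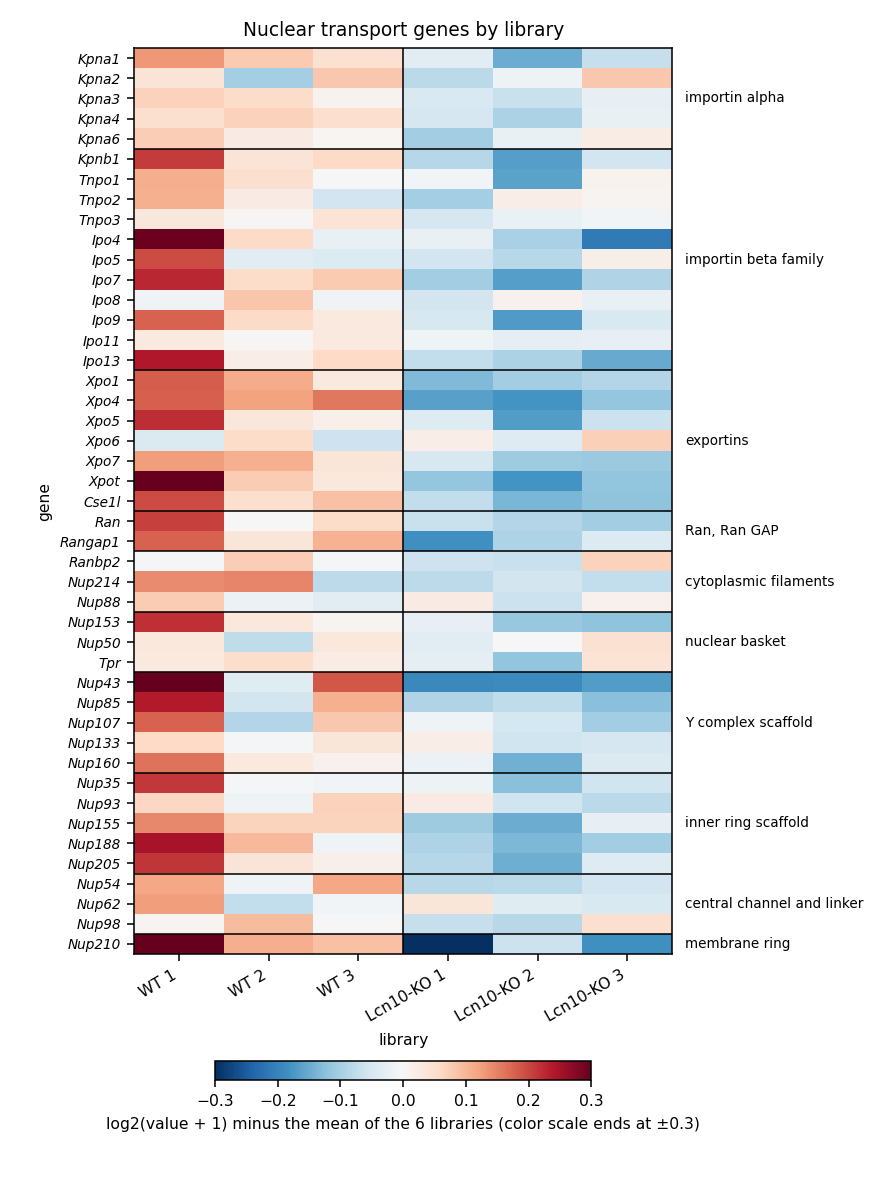
Heat map of the 45 genes (rows, grouped by role) in the 6 libraries (columns). Color gives log2(value + 1) minus the mean of the 6 libraries, and the darkest red cells are mostly in WT replicate 1, with *Xpo6*, *Ranbp2* and *Nup50* among the genes with no separation of the genotypes.

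Promoters are shown for a few members because 2 short motifs recur in the promoter windows. A link of the motifs to the differences between the genotypes was not tested. RefSeq promoters (GRCm38.p6, 250 bases before to 50 after each start) matched 36 of the 45 genes, with 42 windows. Searches covered 5 motifs on both strands, none of which contains another. The palindrome CACGTG, the E-box bound by basic helix-loop-helix factors such as MYC, USF and TFE3, was found in 9 of 42 windows (21.4%), against 10.2% of the 12198 windows of tested genes and 7.15% of all 32851 windows. The 10-base palindrome known as the site of nuclear respiratory factor 1 (NRF1), spelled in capitals in the sequences of *Ran* and *Nup50* below, was found in 5 of 42 (11.9%), against 2.13% and 0.971%. CCAAT was in 47.6%, TGACGTCA in 4.76% and GGGCGG in 69.0% of the windows, against 38.0%, 3.02% and 62.7% of those of tested genes. A match describes letters and not a bound site.
The stretches below are the longest run of the 250 bases before each start that no annotated exon covers. They are written 5′ to 3′ along the gene, with CACGTG and the NRF1 palindrome in capitals. The last base of a further CACGTG in *Nup188* lies beyond its stretch, so those letters are in lower case. Of the 9 members with CACGTG, *Ipo7*, *Nup188* and *Xpot* were past the threshold and 6 (*Ipo4*, *Nup54*, *Nup93*, *Ran*, *Ranbp2* and *Tnpo2*) were not. In *Ipo4* the 250 bases before the start hold no CACGTG, so its match reaches past the start. The 5 members with the NRF1 palindrome (*Nup107*, *Nup50*, *Nup62*, *Ran* and *Xpo5*) were not past the threshold. The genotypes overlapped in *Nup107*, *Nup50* and *Nup62*. *Ran* holds both motifs, and *Nup50* holds the NRF1 palindrome at 2 places and no CACGTG. The 5 genes were chosen for display after their values were seen.
Ipo7 (chr7:110018065-110018273, plus strand): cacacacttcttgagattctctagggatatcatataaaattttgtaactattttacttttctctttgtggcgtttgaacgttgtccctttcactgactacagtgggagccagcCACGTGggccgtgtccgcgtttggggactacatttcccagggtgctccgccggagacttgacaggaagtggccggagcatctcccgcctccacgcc
Nup188 (chr2:30286335-30286396, plus strand): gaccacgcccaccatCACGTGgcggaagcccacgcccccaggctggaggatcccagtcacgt
Xpot (chr10:121626333-121626582, minus strand): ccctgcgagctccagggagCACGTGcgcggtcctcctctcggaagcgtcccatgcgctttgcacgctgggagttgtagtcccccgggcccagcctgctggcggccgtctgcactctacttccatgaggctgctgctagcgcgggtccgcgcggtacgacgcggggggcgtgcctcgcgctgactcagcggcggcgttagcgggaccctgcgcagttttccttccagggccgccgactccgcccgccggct
Ran (chr5:129019906-129020068, plus strand): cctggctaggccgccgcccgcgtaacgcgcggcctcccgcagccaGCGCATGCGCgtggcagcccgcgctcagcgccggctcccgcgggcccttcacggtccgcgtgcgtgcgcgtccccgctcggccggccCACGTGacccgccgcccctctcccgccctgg
Nup50 (chr15:84923178-84923410, plus strand): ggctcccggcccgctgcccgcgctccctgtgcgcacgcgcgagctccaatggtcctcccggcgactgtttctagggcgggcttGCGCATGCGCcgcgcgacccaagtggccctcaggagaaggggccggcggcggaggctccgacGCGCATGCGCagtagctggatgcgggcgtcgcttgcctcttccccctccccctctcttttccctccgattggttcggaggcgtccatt

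Exportins were the receptor family with the lowest median log2 fold change, −0.22, with 5 of 7 genes past the threshold and 6 of 7 with separated groups. *Xpo1* codes for CRM1, the receptor of leucine-rich export signals. It lies on chromosome 11 from 23256041 to 23298249 (plus strand, GRCm38). Its values were 5794, 5513 and 5212 in WT and 4659.9, 4749 and 4805 in Lcn10-KO, with no overlap (log2 fold change −0.22 ± 0.05 (SE)). *Xpot*, the tRNA exporter (chromosome 10, 121587380 to 121626332, minus strand), lay at 3859.9, 3288 and 3189 in WT and at 2878, 2758 and 2876 in Lcn10-KO. WT replicate 1 stood above the rest, and the log2 fold change of −0.28 ± 0.06 became −0.19 without it. *Xpo4*, a receptor of eIF5A and Smad3 (chromosome 14, 57577521 to 57665430, minus strand), had values of 433, 416 and 427 in WT and of 342, 338 and 353 in Lcn10-KO. Both genotypes were tight here, and the log2 fold change was −0.31 ± 0.07 with all libraries and −0.29 without WT replicate 1.

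*Cse1l*, which returns importin alpha to the cytoplasm, had values of 3027, 2733 and 2809 in WT and 2513, 2405 and 2431 in Lcn10-KO (−0.22 ± 0.05). *Xpo7*, an exportin of broad specificity, lay at 1747, 1723 and 1643 in WT and at 1549, 1488 and 1482 in Lcn10-KO (−0.18 ± 0.05). The groups did not overlap in either gene. *Xpo5*, the exporter of microRNA precursors, was separated without passing the threshold, at 1321, 1159 and 1146 against 1103, 1008 and 1083 (−0.18 ± 0.06). *Xpo6*, the exporter of actin with profilin, differed from its family, with 1864, 1997 and 1839 in WT and 1948, 1870.4 and 2019 in Lcn10-KO. Values of the genotypes overlapped, and its log2 fold change was 0.03 ± 0.05.

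Among the 11 import receptors of the importin beta family, all had log2 fold changes below 0, 3 were past the threshold and the groups were separated in 7, with a median of −0.10. *Kpnb1*, importin beta itself, which carries importin alpha and its cargo through the pore (chromosome 11, 97159714 to 97187881, minus strand), was at 11143, 9895 and 10053 in WT and at 9081, 8598 and 9259 in Lcn10-KO. Every Lcn10-KO library lay below every WT library, with a log2 fold change of −0.21 ± 0.05. *Ipo7*, an importer of ribosomal proteins (chromosome 7, 110018274 to 110056609, plus strand), had values of 5199, 4621 and 4695 in WT and 4132, 3962 and 4175 in Lcn10-KO (−0.24 ± 0.05). Its promoter is the first of those printed above. *Ipo13*, which works in both directions, lay at 1423, 1222 and 1256 in WT and at 1145, 1128 and 1085 in Lcn10-KO (−0.21 ± 0.06, and −0.15 without WT replicate 1).

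*Ipo9*, a carrier of histones H2A and H2B, had 2741, 2525 and 2477 in WT and 2348, 2155 and 2351 in Lcn10-KO (−0.18 ± 0.05, not past the threshold). *Ipo4* was at 1177, 999 and 946 in WT and at 946, 897 and 829 in Lcn10-KO, so that WT replicate 3 and Lcn10-KO replicate 1 nearly touched (−0.22 ± 0.08). It shares 60.1% of its exon bases with an overlapping gene model on the same strand, and its value is uncertain. *Ipo5*, an importer of ribosomal proteins and histones, showed how much WT replicate 1 can matter, with 7090.1 there, 6047 and 6009.7 in WT replicates 2 and 3, and 5946, 5844 and 6268 in Lcn10-KO. Its log2 fold change was −0.08 ± 0.06 and −0.003 without that library. The other 5 genes had log2 fold changes of −0.10 (*Tnpo1*, an importer of RNA-binding proteins), −0.05 (*Tnpo2*, its close relative, and *Tnpo3*, an importer of splicing factors) and −0.04 (*Ipo8* and *Ipo11*). Of these, *Tnpo3* and *Ipo11* had separated groups with little distance between them, *Ipo11* at 948 to 965 in WT and 928 to 938 in Lcn10-KO.

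The 5 importin alpha genes, whose products bind the classical nuclear localization signal, had a median log2 fold change of −0.09. *Kpna1* was past the threshold, at 2198, 2120.1 and 2072 in WT and 1961, 1810.4 and 1916 in Lcn10-KO (−0.17 ± 0.05). *Kpna3* and *Kpna4* were separated without passing it (−0.09 ± 0.04 and −0.11 ± 0.04), and *Kpna6* overlapped (−0.07 ± 0.05). *Kpna2* (chromosome 11, 106988629 to 106999541, minus strand) had 4526, 4103 and 4660.0 in WT and 4163, 4357 and 4661 in Lcn10-KO. Both genotypes covered the same range, with a log2 fold change of −0.01 ± 0.06. Per kilobase of exon *Kpna2* made up 48.9% ± 1.86 (SD, n = 3) of the importin alpha total in WT and 50.6% ± 1.19 in Lcn10-KO, and *Kpna1* 11.0% ± 0.420 and 10.2% ± 0.546.

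*Ran*, the GTPase whose gradient gives transport its direction (chromosome 5, 129020069 to 129024323, plus strand), had 10404, 9018 and 9388 in WT and 8618.5, 8502 and 8405 in Lcn10-KO. Values of the genotypes were separated, with WT replicate 1 the farthest above, and the log2 fold change was −0.17 ± 0.05 (−0.11 without that library, not past the threshold in either). *Rasl2-9*, a close relative of *Ran* that could share reads with it, was listed at 5.68 to 8.52. *Rangap1*, which stimulates GTP hydrolysis by Ran in the cytoplasm (chromosome 15, 81704248 to 81745530, minus strand), lay at 4158, 3775 and 3954 in WT and at 3236, 3449.9 and 3578 in Lcn10-KO (−0.21 ± 0.05, past the threshold).

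**Figure D2:**
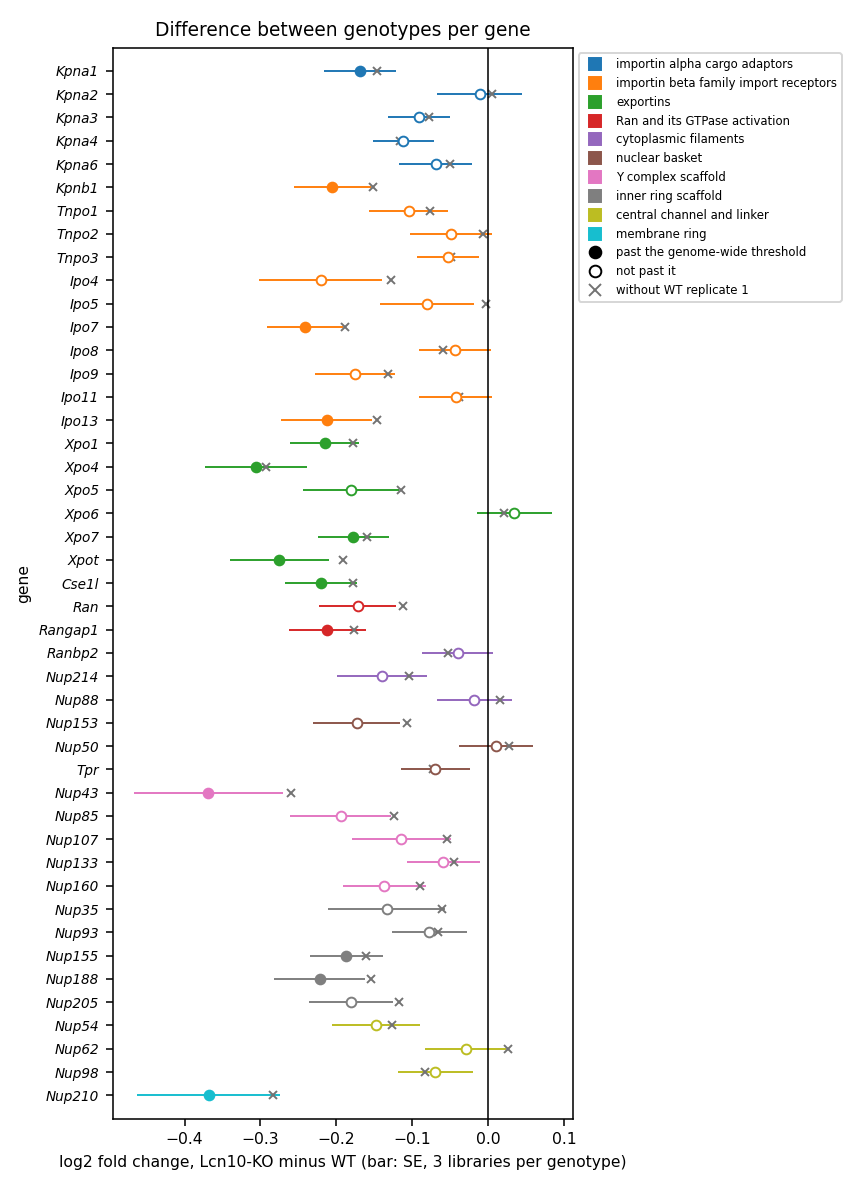
Log2 fold change of each gene, Lcn10-KO minus WT, with its SE (bars) and the value without WT replicate 1 (crosses). Filled points are the 14 genes past the genome-wide threshold, and most crosses lie closer to 0 than the points, with 40 of 45 still below 0.

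In the scaffold of the pore, the inner ring genes had a median log2 fold change of −0.18 and those of the Y complex −0.14. *Nup188* (chromosome 2, 30286397 to 30344266, plus strand) had values of 1944, 1754 and 1626 in WT and 1538, 1491 and 1523 in Lcn10-KO (−0.22 ± 0.06), and *Nup155* of 2002, 1897 and 1897 against 1681, 1633 and 1779 (−0.19 ± 0.05). Both were past the threshold and separated. *Nup205*, a relative of *Nup188*, was at 3208, 2838 and 2792 against 2602, 2496 and 2689 (−0.18 ± 0.06). *Nup35*, a membrane-binding subunit, had separated groups that nearly met, with 426 as the lowest WT and 424 as the highest Lcn10-KO value (−0.13 ± 0.08), and *Nup93* overlapped (−0.08 ± 0.05).

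*Nup43*, a small beta-propeller subunit of the Y complex (chromosome 10, 7667503 to 7678881, plus strand), had the lowest log2 fold change of the 45 genes, −0.37 ± 0.10. Its values were 459, 339 and 396 in WT and 304, 304 and 309 in Lcn10-KO. Libraries of WT were scattered and the Lcn10-KO libraries nearly equal, and without WT replicate 1 the log2 fold change was −0.26. *Nup85*, of the short arm, was at 1400.0, 1143 and 1278 in WT and 1114, 1126 and 1088 in Lcn10-KO (−0.19 ± 0.07), separated but not past the threshold. *Nup160* was also separated (−0.14 ± 0.05). *Nup107* (−0.11 ± 0.07) and *Nup133* (−0.06 ± 0.05) overlapped between the genotypes.

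*Nup210*, a membrane nucleoporin with a large domain in the lumen (chromosome 6, 91013068 to 91116829, minus strand), had 404, 341 and 336 in WT and 256, 302 and 278 in Lcn10-KO. All Lcn10-KO libraries lay below WT, with a log2 fold change of −0.37 ± 0.09 that became −0.28 without WT replicate 1.

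The median log2 fold change was −0.04 for the cytoplasmic filaments, −0.07 for the basket and −0.07 for the channel, and 0 of these 9 genes were past the threshold. *Ranbp2*, a SUMO ligase at the tips of the filaments, had 6403, 6763 and 6399 in WT and 6157, 6140.4 and 6742 in Lcn10-KO (−0.04 ± 0.05). *Nup88* (−0.02 ± 0.05) overlapped as well. *Nup214*, their FG-repeat partner, split the WT libraries, at 1713 and 1716 in replicates 1 and 2 but 1469.6 in replicate 3, against 1468, 1492 and 1473 in Lcn10-KO (−0.14 ± 0.06).

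In the basket, *Nup153* was separated, at 3140.4, 2759.8 and 2714 in WT and 2654, 2492 and 2479.6 in Lcn10-KO (−0.17 ± 0.06). *Tpr*, its coiled-coil filament, had 6970.4, 7082 and 6943 against 6703, 6293 and 7031 (−0.07 ± 0.05), with Lcn10-KO replicate 3 inside the WT range. *Nup50*, a cofactor of importin alpha release, was at 1637, 1519 and 1637 in WT and 1567, 1604 and 1653 in Lcn10-KO (0.01 ± 0.05). In the channel, *Nup54* was separated, at 773, 709 and 774 against 674, 674 and 686 (−0.15 ± 0.06). Its partner *Nup62* overlapped, at 2585, 2249 and 2356 against 2428, 2311 and 2296 (−0.03 ± 0.05), as did *Nup98* (−0.07 ± 0.05).

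Levels between genes were compared as normalized counts per kilobase of merged exon. *Ran* was the most abundant in WT at 3657 ± 273 (mean ± SD, n = 3 throughout), followed by *Kpna2* at 1887 ± 124, *Kpnb1* at 1758 ± 115, *Ipo5* at 1413 ± 136 and *Rangap1* at 1203 ± 58.2. *Kpna2* lay above *Kpnb1* in every library of both genotypes, although their ranges of mean ± SD overlapped in WT. In Lcn10-KO these 5 genes stood at 3240.2 ± 40.7, 1871 ± 107, 1523 ± 58.0, 1332 ± 48.9 and 1038 ± 52.4. *Xpo4* (49.0 ± 1.00), *Nup210* (51.2 ± 5.41) and *Xpo7* (109 ± 3.49) were the lowest in WT, and the order of the first pair changed between WT libraries. The merged exons of *Xpo7* span 15.7 kb, which lowers its level on this scale. In some other genes the merged exons were shorter than the longest annotated transcript, as in *Xpo6* (4552 against 7335 bases), which raises their level.

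Subunits of one complex were not equally abundant as RNA. In the WT Y complex, *Nup85* stood at 571 ± 57.7, *Nup107* at 341 ± 31.2, *Nup43* at 309 ± 46.7, *Nup160* at 286 ± 16.5 and *Nup133* at 219 ± 4.97 normalized counts per kilobase. *Nup107* lay above *Nup43* and *Nup160* in every WT library, although its range of mean ± SD overlapped that of *Nup43*. The order of *Nup43* and *Nup160* changed between WT libraries. In the inner ring, *Nup205* (459 ± 35.4) and *Nup93* (445 ± 14.01) were higher than *Nup188* (303 ± 27.3), *Nup35* (289 ± 25.9) and *Nup155* (239 ± 7.52). The merged exons of *Nup35* and *Nup43* held 1559 and 1286 bases, against 2688 and 1735 in their longest annotated transcripts. The places of *Nup35* and *Nup43* in these orders are therefore uncertain. Among the channel nucleoporins, *Nup62* at 881 ± 63.1 was above *Nup54* (319.8 ± 16.0) and *Nup98* (318 ± 11.8).

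**Figure D3:**
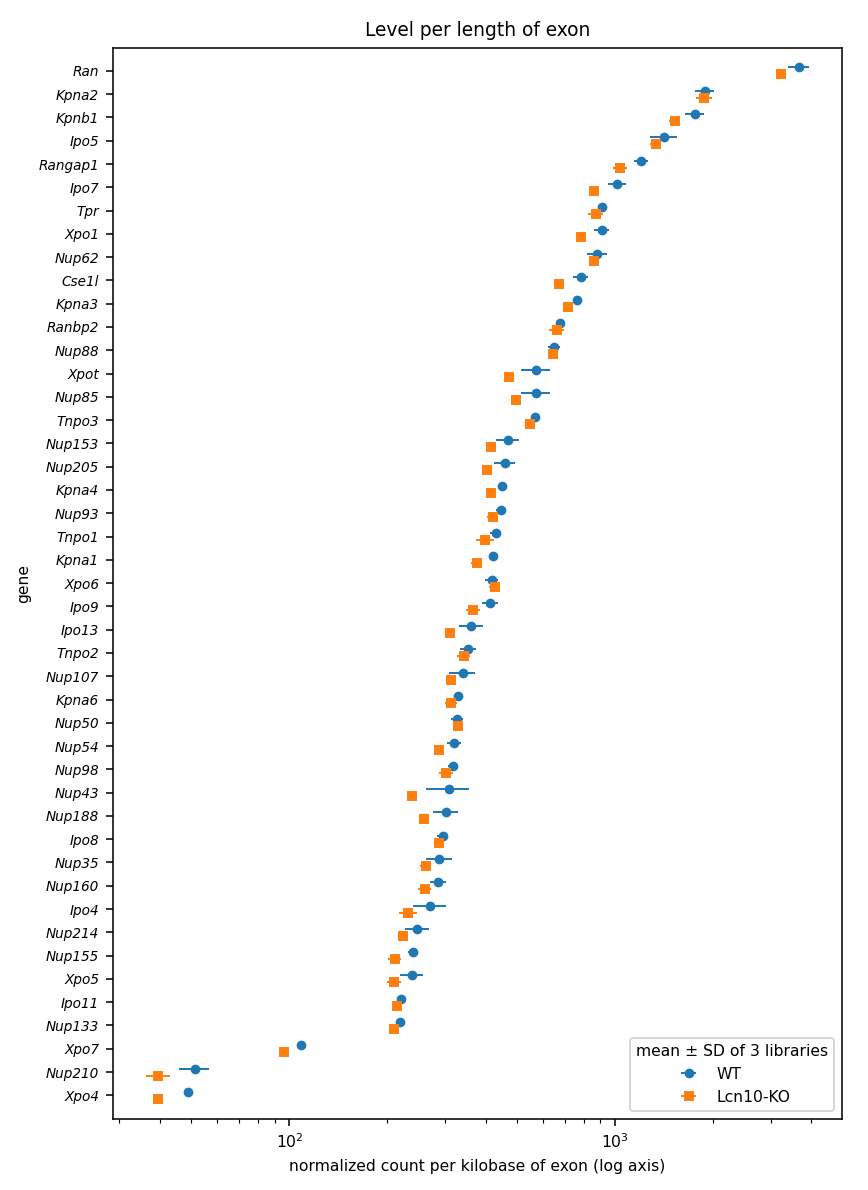
Normalized count per kilobase of merged exon (log axis) for each gene, mean ± SD of 3 libraries in WT (circles) and Lcn10-KO (squares). *Ran* is highest at 3657 in WT and *Xpo4* lowest at 49.0, and the distance between the genotypes is small beside the range between genes.

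Deviations of each library from the mean of its own genotype do not contain the difference between the genotypes. They are not free of the choice of the members, because a high value in WT replicate 1 also raises the WT mean. WT replicate 1 had the highest of the 3 WT values in 33 of the 45 genes, whereas it was the highest in 38.6% of all tested genes. The median deviation of the members in WT replicates 1 to 3 was 0.07, −0.04 and −0.03 log2 units, against 0.002, 0.002 and −0.003 over all tested genes. WT replicate 1 exceeded the mean of the other WT libraries in 39 members, most in *Nup43* (125%), *Ipo4* (121%), *Nup210* (119%), *Xpot* (119%) and *Ipo5* (118%). It was below that mean in 6, *Kpna4*, *Ipo8*, *Xpo6*, *Ranbp2*, *Tpr* and *Nup98* (96.8% to 99.4%). The sum of the S phase markers was also highest in this WT library, although *Pcna* and *Tyms* among them were highest in WT replicate 3.

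Within Lcn10-KO, replicate 2 had the lowest value in 24 of the 45 genes and replicate 3 the highest in 22, against 32.7% and 36.4% of all tested genes, with median deviations of −0.03 and 0.02. The S phase sum was lowest in replicate 3 and not in replicate 2. The median SD was 5.35% of the mean in WT and 3.34% in Lcn10-KO for the members. For the 7323 tested genes within the members' range of WT means these were 4.71% and 3.47%. Without WT replicate 1 the median log2 fold change of the members was −0.11, with 40 genes below 0. *Kpna2*, *Nup88* and *Nup62* were then above 0, as were *Xpo6* and *Nup50*.

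**Figure D4:**
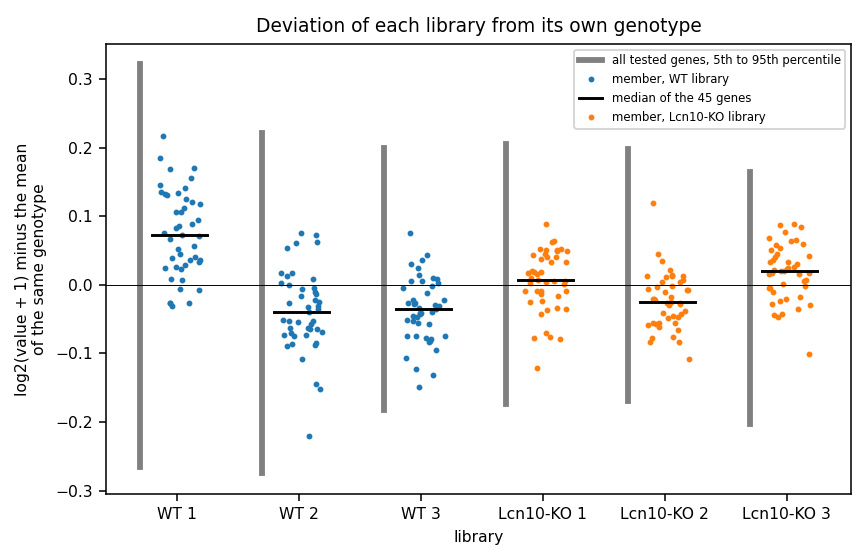
Log2(value + 1) of the 45 genes (points) in each library minus the mean of the same genotype, with the median of the genes (black line) and the 5th to 95th percentile of all tested genes (gray bar). WT replicate 1 has its median at 0.07. The points lie within the gray bars, which also cover genes of lower level than the members.

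Other genes of the pathway were looked at in 5 lists of genes that are not members, with 82 tested genes in all. Of these, 8 were lower, 1 was higher and 73 did not pass the threshold, and 9.76% were called lower against 5.14% of all tested genes. Lists of the same pathway are not independent of the choice of the members, because both come from genes seen in these libraries. Among 11 other nucleoporins, 2 were lower, 0 were higher and 9 did not pass, with a median log2 fold change of −0.11. *Ndc1*, a membrane nucleoporin that anchors the pore, had a mean of 1085 ± 104 normalized counts in WT and 903 ± 37.8 in Lcn10-KO (log2 fold change −0.26 ± 0.07, limma adjusted p = 0.0317). *Pom121*, another membrane anchor, fell from 1075 ± 28.7 to 952 ± 12.2 (−0.18 ± 0.05, limma adjusted p = 0.0417). *Seh1l*, of the Y complex, had −0.14 ± 0.05 and *Ahctf1*, which recruits the Y complex to chromatin, −0.12 ± 0.05 (limma adjusted p = 0.0866 and 0.177).

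Of 8 other transport receptors and Ran cycle genes, 1 was lower, 0 were higher and 7 did not pass, with a median of −0.12. *Ranbp1*, which helps RanGAP to release export complexes, fell from 2931 ± 272 to 2305 ± 69.3 (−0.34 ± 0.06, limma adjusted p = 0.00762). *Rangrf*, a Ran-binding factor, had −0.41 ± 0.15 and *Rcc1*, the nucleotide exchange factor that charges Ran with GTP on chromatin, −0.20 ± 0.07 (limma adjusted p = 0.0943 and 0.116). *Kpna7* and *Ranbp3l* were listed at 0 in all libraries.

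Of 27 genes of RNA and ribosome export, 2 were lower, 0 were higher and 25 did not pass, with a median of −0.04. *Ncbp1*, the large subunit of the nuclear cap-binding complex, fell by 0.21 ± 0.05 and *Ltv1*, an export adaptor of the small ribosomal subunit, by 0.26 ± 0.07 on the log2 scale (limma adjusted p = 0.0293 and 0.0329). *Ddx19a*, an RNA helicase at the pore, and *Alyref*, an mRNA export adaptor, had −0.13 ± 0.05 each (limma adjusted p = 0.0911 and 0.131). In the SUMO cycle, 0 of 16 genes passed in either direction by limma, and 3 were lower and 0 higher at an unadjusted p under 0.05, against 13.85% lower and 12.45% higher of all tested genes. *Uba2*, a subunit of the activating enzyme, had −0.14 ± 0.05 (limma adjusted p = 0.0782), *Senp5*, a SUMO protease, had −0.13 ± 0.06, and the median was −0.01.

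In the nuclear lamina and the LINC complex, which ties the lamina to the cytoskeleton, 3 of 20 genes were lower, 1 was higher and 16 did not pass, with a median of −0.09. *Syne3*, a nesprin of the outer nuclear membrane, fell from 1303 ± 35.9 to 1043 ± 38.0 (−0.32 ± 0.05, limma adjusted p = 0.00374). *Sun1* and *Sun2*, the inner membrane partners of nesprins, went in opposite directions. *Sun1* fell from 1167 ± 45.001 to 1026 ± 24.8 (limma adjusted p = 0.0385), and *Sun2* rose from 2787 ± 127 to 3152 ± 132 (limma adjusted p = 0.0380). *Tor1aip2*, an activator of torsins, fell by 0.16 ± 0.04 on the log2 scale (limma adjusted p = 0.0391). Of these 9 genes, *Syne3* alone kept its call in each fit that omitted 1 library (highest limma adjusted p = 0.0305). The 8 lower calls became 3 without WT replicate 3, 2 without Lcn10-KO replicate 1, 2 without replicate 2 and 1 without replicate 3, and among those fits *Sun2* kept its call only without WT replicate 2. In these lists there were 0 calls by limma without the trend, where 13 of the 82 were lower and 1 was higher at an unadjusted p under 0.05, against 11.4% lower and 11.05% higher of all tested genes.

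**Figure D5:**
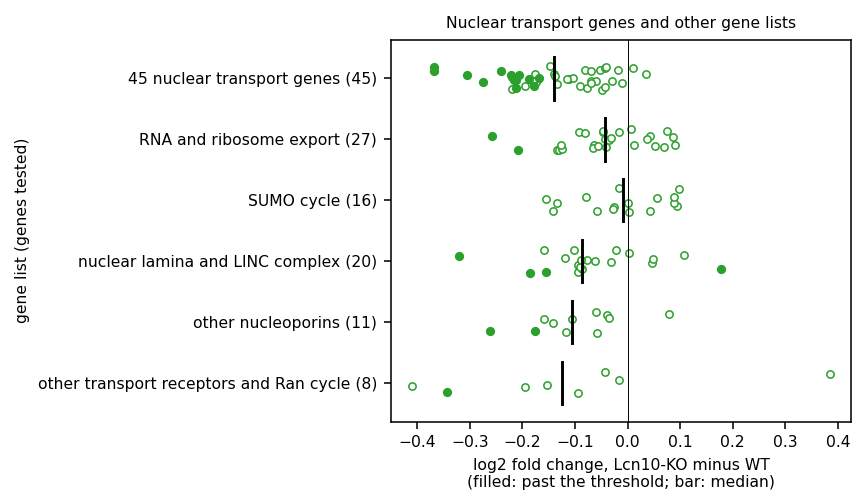
Log2 fold change of the 45 members and of the tested genes of 5 other lists, 1 point per gene, filled where past the genome-wide threshold, with the median of each list (bar). Medians run from −0.14 in the members to −0.01 in the SUMO cycle, and *Sun2* is the filled point above 0.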

How the data were processed

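The 6 libraries are 3 per genotype. The deposited values are a signal per gene symbol that the authors scaled from read counts. The submitters' processing notes name build mm10 and DESeq2, Salmon 0.11.2, STAR 2.6.1a and bcl2fastq. What each tool did, the annotation and the strand setting were not given in the sources used here. Low values were whole multiples of the value of a read, within 0.1 reads, for 91.2% to 92.7% of cases, so whole reads were not recovered and no count test was run.

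Testing required values of 10 or more in 3 or more libraries and used log2(value + 1), on which changes of low genes come out too small, with limma 3.58.1 in R 4.3.3 (genotype as the only term, mean-variance trend, robust estimation, Benjamini-Hochberg threshold of 0.05). The members, lists and tests were chosen with earlier results of these data known. The text may name every member, and from each other list up to 4 called genes by p or, where fewer than 4 passed, up to 2 others.

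On simulated data for this comparison, with 12091 genes, 64.0% of genes changed 1.25-fold were recovered, a size that few members reach. In the simulation 9 unchanged genes were called. Every simulated gene had the same dispersion (a measure of spread), the median over genes, so the rate may differ in the data. Positions, merged exon lengths and overlaps came from GENCODE M21 (GRCm38, the assembly that mm10 names), and promoters from RefSeq (GRCm38.p6). Merged exon lengths and shared exon bases used only the transcripts of the basic set of GENCODE M21. Of the members, 13 share exon bases with another annotated gene, at most 10.9% of them except *Ipo4*, and without known strand use such reads cannot be told apart. Protein sequences were not used here, and the result of 1 marker list is not reported here. Alternatives were quantile normalization, median-ratio rescaling, limma without the trend, other filters (none, or 50), pseudocounts of 0.5 and 10, a replicate block, correction for GC content and transcript length, and each library left out in turn. Plots used matplotlib 3.10.9 (Python 3.11.15).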

Additional observations from a re-analysis of the deposited data

How the results depend on the processing

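The median log2 fold change of the members stayed below 0 in all 15 alternatives, from −0.17 without WT replicate 2 or 3 to −0.11 without WT replicate 1. Called genes over the whole table numbered 1190, between 175 and 1664 when 1 library was left out and 14 in limma without the trend. Members called lower numbered 14, between 0 and 17 with 1 library left out and 0 without the trend. Other pathway genes called lower numbered 8, between 1 and 11 with 1 library left out, 0 without the trend and 5 with no filter on low values. Those called higher numbered 1, between 0 and 1 with 1 library left out, 0 without the trend and 0 after correction for GC content and transcript length. The cause of these losses was not tested. Quantile normalization ended the calls of *Ipo13* and *Kpna1* and added *Ran*, and the GC and length correction ended that of *Xpo7*. With a replicate block 20 members and 1607 genes in all were called. Deviations of same-numbered libraries correlated over genes at 0.038, 0.073 and 0.014, and each Lcn10-KO library correlated best with the WT library of its number. WT replicate 3 correlated best with Lcn10-KO replicate 1 (0.026). Correlations this small cannot decide whether the replicate numbers pair the libraries.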
